A study of Oryzias latipes with 27 samples.

Results

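The genes described here are the Piwi and Tudor genes of the piRNA pathway in medaka (Oryzias latipes), chosen by symbol: piwil1, piwil2 and tdrd12, with those of tdrd1, tdrd5, tdrd6, tdrd9, tdrkh, mael and mov10l1 that the tables list. The tables held 8 of these 10 symbols, out of 26099 genes in all, and tdrd6 and mael were not analysed here. Transcript levels were measured by poly(A) RNA-seq in 27 gonadal libraries, in 9 groups of 3, taken at 10, 30 and 120 days after hatching (D10, D30 and D120). At each stage the groups were MT_Fe_Ov, ovaries of XY females in which the male-determining gene DMY had been mutated with TALENs, WT_Fe_Ov, ovaries of wild-type females (XX), and WT_Ma_Te, testes of wild-type males (XY). The mutant animals came from a line kept over generations, and how many founders it goes back to is not given in the sources used here. The D10 libraries hold gonadal primordia together with the tissue around them, without head and tail.

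PIWI-interacting RNAs (piRNAs) are small RNAs of the animal germ line that guide Piwi proteins, a branch of the Argonaute family, to transposon transcripts. In fish as in mammals the pathway works in germ granules and at mitochondria, where Tudor proteins bind the methylated arginines of Piwi proteins and hold the machinery together. Germ cells of both sexes use it, and its loss in zebrafish or mouse impairs germ cells. In medaka piwil1 and piwil2 encode the Piwi proteins (in zebrafish Ziwi and Zili). The Tudor scaffold tdrd1, the germ granule Tudor protein tdrd5, the Tudor helicases tdrd9 and tdrd12, and the mitochondrial Tudor protein tdrkh act around them in mouse. The helicase mov10l1, which in mouse binds piRNA precursors, has no Tudor domain and is counted with them by the rule.

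On the ASM223467v1 assembly, the build to which the reads had been aligned, piwil1 lies on chromosome 9 (20081957 to 20102019) and piwil2 on chromosome 13 (27044937 to 27069845). The Tudor genes tdrd1 (5466701 to 5484091) and tdrkh (23417555 to 23429591) are both on chromosome 19. Chromosome 6 carries tdrd12 (5364816 to 5445913) and mov10l1 (12368196 to 12382765). On chromosome 4 lies tdrd5 (14227767 to 14243236), and on chromosome 22 lies tdrd9 (12185961 to 12215284). The span of tdrd9 overlaps that of rd3l, which starts at 12210993. Reads were counted on exons with no strand setting, and whether exons of tdrd9 and rd3l overlap was not checked.

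The libraries held 5551651 to 17586392 counted fragments (median 12200597). Each group's 3 libraries are described as biological replicates, and p-values measure the spread between these libraries. Totals differed between groups. They were 6301347 to 10129588 in D30 MT_Fe_Ov, against 14855932 to 15297992 in D30 WT_Fe_Ov. In D10 WT_Ma_Te they were 5551651, 7243501 and 11886562, against 10660310 to 13941804 in the D10 ovaries. The part of these totals in the comparisons was not tested. Replicate 2 of D30 MT_Fe_Ov had the lowest FPKM of its group for each of the 8 genes, and replicate 3 of D10 WT_Ma_Te had the smallest total count. The testis libraries of D30 had another read length than the remaining groups. In each comparison that uses them, within D30 or between stages, its part cannot be told apart from that of tissue or stage. The labelled tissues matched their oocyte and meiotic markers at D30 and D120. The 4 of 7 oocyte markers found summed to between 1430 and 1881 FPKM in D30 ovaries of either genotype, against 40.3 to 49.6 FPKM in D30 testes. The 7 of 9 meiotic markers found summed to between 48.8 and 68.3 FPKM in D30 ovaries, against 364 to 378 FPKM in D30 testes. At D10, 4 of 16 muscle markers summed to between 5600 and 14030 FPKM over the 9 libraries and 3 of 9 liver markers to between 117 and 1106 FPKM, while at D30 and D120 they summed to at most 17.9 and 1.74 FPKM. The 1 pancreas marker found of 7 stood at 30.1 to 1548 FPKM in D10 libraries and at up to 417 FPKM in D30 testes. It differed between the D30 ovaries, with 75.7 to 132 FPKM in WT_Fe_Ov and 0.263 to 2.48 FPKM in MT_Fe_Ov. In D120 libraries it stood at up to 30.9 FPKM. The 3 of 6 markers of Sertoli cells or testis soma summed to 38.8 to 161 FPKM in the ovaries of D30 and D120 and to 430.0 to 2387 FPKM in the testes, and the 2 of 6 granulosa markers found went opposite ways. Of these, foxl2 stood at 2.31 to 9.56 FPKM in D30 ovaries and 0.585 to 1.09 FPKM in D30 testes, while fshr stood at 0.509 to 1.97 FPKM in those ovaries and 79.6 to 85.9 FPKM in the testes. In such bulk samples, fewer germ cells and less RNA per germ cell cannot be told apart.

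Levels are given as FPKM, fragments per length of exon and per fragments counted, which sets a gene against its own length and the library total. Fold changes are on the log2 scale from edgeR's quasi-likelihood test, with TMM normalization. TMM rescales libraries on the assumption that most genes do not differ. Between ovary and testis at D30 and D120, 67.4% to 77.2% of genes had an unadjusted p below 0.05 in that test. The assumption is therefore doubtful in those comparisons. A gene was called where its adjusted p (Benjamini-Hochberg, over all genes tested) did not exceed 0.05 and its log2 fold change was 1 or more in either direction. The scalings disagreed where ovary and testis were compared. The median gene in D30 WT_Fe_Ov stood at -0.56 relative to D30 WT_Ma_Te under TMM and at -1.50 under library totals, a shift of 0.95. The shift was 0.81 for D30 MT_Fe_Ov, 0.29 for D120 WT_Fe_Ov and 0.34 for D120 MT_Fe_Ov, each against the testes of its stage. Fold changes are therefore also given relative to the median gene, a value that is by construction nearly the same under both scalings.

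Of the Piwi genes, piwil1 was the most abundant member in the testes of D30 and D120. At D30 it stood at 82.9, 52.8 and 109.9 FPKM in MT_Fe_Ov, at 127, 135 and 127 FPKM in WT_Fe_Ov and at 434, 437 and 421 FPKM in WT_Ma_Te. At D120 it stood at 60.4, 57.5 and 61.4 FPKM in MT_Fe_Ov, at 53.6, 54.8 and 64.5 FPKM in WT_Fe_Ov and at 268, 263 and 245 FPKM in WT_Ma_Te. Every testis library of D30 or D120 lay above every ovary library of any stage. The mean of 430.5 ± 8.51 FPKM (SD, n = 3) placed piwil1 within the top 0.483% of genes in D30 testes. In order of their means, the groups ran from D30 testis over D120 testis, D30 WT_Fe_Ov, D30 MT_Fe_Ov, D120 MT_Fe_Ov and D120 WT_Fe_Ov to the groups of D10. From D30 MT_Fe_Ov to D120 WT_Fe_Ov neighbours in this order overlapped, as they did among the groups of D10.

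The second Piwi gene, piwil2, did not follow this order. At D30 it stood at 109.5, 87.2 and 153 FPKM in MT_Fe_Ov, at 143, 125 and 129 FPKM in WT_Fe_Ov and at 118, 116 and 115 FPKM in WT_Ma_Te. These groups lay close together, and only WT_Fe_Ov was apart from the testes. At D120 piwil2 stood at 52.2, 46.4 and 48.8 FPKM in MT_Fe_Ov, at 47.4, 48.8 and 54.1 FPKM in WT_Fe_Ov and at 88.4, 81.0 and 74.8 FPKM in WT_Ma_Te. By then every testis library lay above every ovary library.

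Among the Tudor genes, the scaffold gene tdrd1 was by group mean the most abundant member in both kinds of ovary at D30 and D120. In replicate 2 of D30 MT_Fe_Ov piwil2 (87.2 FPKM) was above it. It stood at 125, 83.1 and 183 FPKM in D30 MT_Fe_Ov, at 192, 183 and 185 FPKM in D30 WT_Fe_Ov and at 168, 148 and 156 FPKM in D30 WT_Ma_Te. At D120 it stood at 115, 112 and 107 FPKM in MT_Fe_Ov, at 88.2, 94.1 and 116 FPKM in WT_Fe_Ov and at 73.2, 70.8 and 67.0 FPKM in WT_Ma_Te. The wild-type ovaries were above the testes in every library at both stages, the mutant ovaries at D120.

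The germ granule gene tdrd5 was the least abundant member in ovaries at D120. It averaged 22.2 ± 5.33 FPKM in D30 MT_Fe_Ov, 26.6 ± 1.49 FPKM in D30 WT_Fe_Ov and 54.6 ± 3.04 FPKM in D30 WT_Ma_Te (SD, n = 3 each). At D120 the means were 15.5 ± 0.404, 14.1 ± 1.45 and 30.8 ± 0.659 FPKM in MT_Fe_Ov, WT_Fe_Ov and WT_Ma_Te (SD, n = 3 each). Testis libraries were above ovary libraries at both stages on this scale.

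The Tudor helicase gene tdrd12 had its highest group mean in D120 testes, as tdrkh did. At D30 tdrd12 stood at 25.3, 13.9 and 28.9 FPKM in MT_Fe_Ov, at 30.2, 28.8 and 29.4 FPKM in WT_Fe_Ov and at 42.4, 42.5 and 42.6 FPKM in WT_Ma_Te. At D120 tdrd12 stood at 31.8, 31.7 and 29.8 FPKM in MT_Fe_Ov, at 32.8, 33.3 and 37.8 FPKM in WT_Fe_Ov and at 67.2, 59.8 and 71.5 FPKM in WT_Ma_Te. Ovary libraries were below testis libraries at both stages on the FPKM scale, an order that turned under TMM at D30 in WT_Fe_Ov (0.43). The other Tudor helicase gene, tdrd9, averaged 42.9 ± 14.4 FPKM in D30 MT_Fe_Ov, 62.6 ± 2.14 FPKM in D30 WT_Fe_Ov and 71.6 ± 4.70 FPKM in D30 WT_Ma_Te (SD, n = 3 each). At D120 its order turned on the FPKM scale, with 45.0 ± 1.83 FPKM in MT_Fe_Ov, 45.1 ± 5.03 FPKM in WT_Fe_Ov and 33.3 ± 1.83 FPKM in WT_Ma_Te (SD, n = 3 each), and ovary libraries were above testis libraries. Under TMM the order of tdrd9 did not turn. Its log2 fold change over testis was 0.76 at both stages in WT_Fe_Ov, and 0.13 at D30 and 0.80 at D120 in MT_Fe_Ov.

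The mitochondrial gene tdrkh differed from the other members in being well expressed at D10. At D10 it stood at 17.6, 19.1 and 21.9 FPKM in MT_Fe_Ov, at 25.7, 30.2 and 26.1 FPKM in WT_Fe_Ov and at 21.3, 53.9 and 72.8 FPKM in WT_Ma_Te. The ovary groups of D30 and D120 averaged between 24.2 and 27.6 FPKM, and the testis groups averaged 65.5 ± 5.48 FPKM (D30) and 76.9 ± 5.97 FPKM (D120), as SD over 3 libraries. On the FPKM scale the 18 ovary libraries thus lay between 17.6 and 30.2 FPKM over the stages, below the testes of D30 and D120. The D10 libraries also held surrounding tissue, and the part of that tissue in their tdrkh level was not tested. Under TMM tdrkh in D30 WT_Fe_Ov over testis was at -0.48, short of the fold threshold. Relative to the median gene it stood at 0.07.

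The helicase gene mov10l1 had the highest log2 fold change of ovary over testis among the members at D30 and D120, a rank that a change of scaling leaves as it is. At D30 it stood at 59.3, 38.2 and 78.7 FPKM in MT_Fe_Ov, at 90.0, 90.2 and 89.7 FPKM in WT_Fe_Ov and at 54.5, 41.8 and 46.6 FPKM in WT_Ma_Te. At D120 it stood at 67.9, 62.0 and 67.3 FPKM in MT_Fe_Ov, at 59.8, 62.8 and 67.2 FPKM in WT_Fe_Ov and at 22.7, 22.2 and 22.7 FPKM in WT_Ma_Te. The groups overlapped between D30 MT_Fe_Ov and the testes, and were apart in the other comparisons of ovary with testis at these stages.

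**Figure D1:**
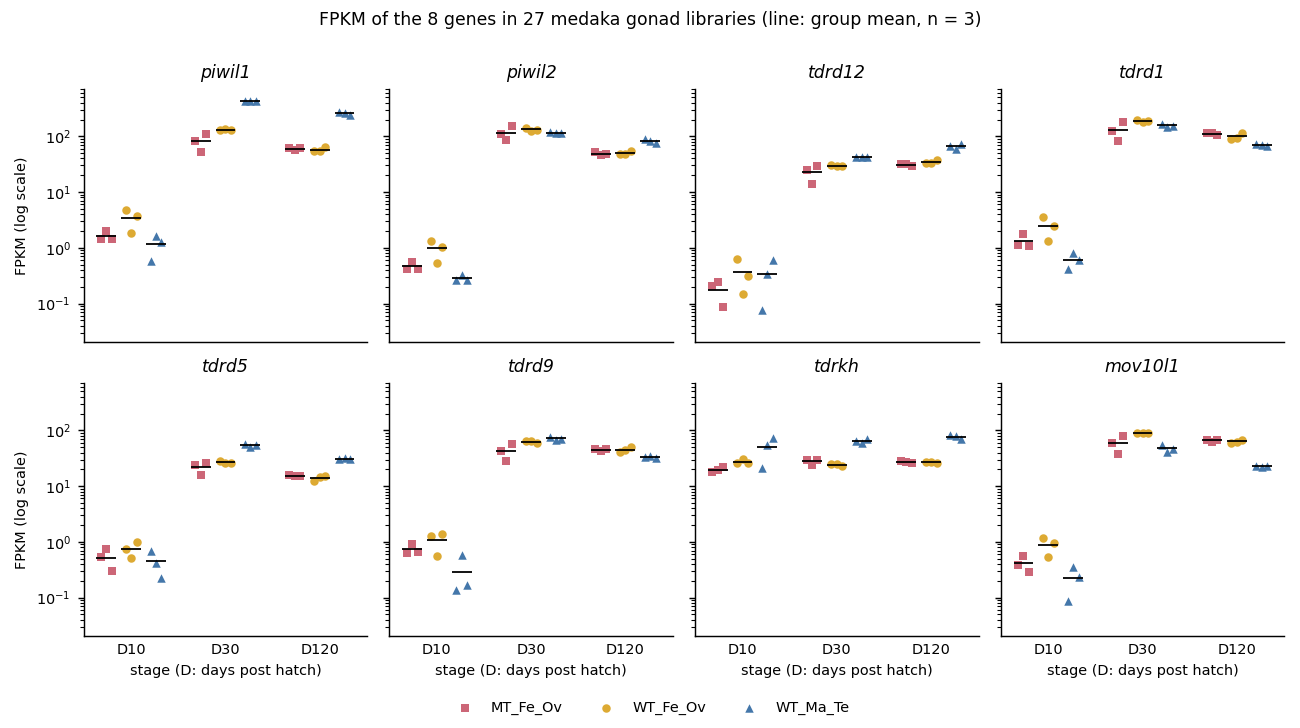
FPKM of each of the 8 genes on a log axis, with 1 panel per gene, 1 point per library and a bar at the mean of each of the 9 groups, ordered by stage. The 7 genes other than tdrkh sit near or below 5 FPKM at D10 and above 10 FPKM later, and piwil1 reaches 434, 437 and 421 FPKM in D30 testes.

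At D10 the question was whether the pathway already differed between future ovaries and testes, and no member was called in any comparison. Counts of the 7 members other than tdrkh ran between 4 and 174 per library, and tdrkh had 554 to 912. The Piwi gene piwil1 stood at 1.46, 2.04 and 1.43 FPKM in MT_Fe_Ov, at 4.71, 1.85 and 3.70 FPKM in WT_Fe_Ov and at 0.588, 1.62 and 1.26 FPKM in WT_Ma_Te. Scaffold gene tdrd1 stood at 1.11, 1.78 and 1.08 FPKM in MT_Fe_Ov, at 3.55, 1.33 and 2.43 FPKM in WT_Fe_Ov and at 0.420, 0.804 and 0.600 FPKM in WT_Ma_Te. For tdrd1 both kinds of ovary were above the testes in every library.

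Between D10 WT_Fe_Ov and WT_Ma_Te, 0 of 8 members were called in edgeR's quasi-likelihood test, where 0.00814% of 24562 genes were, and 5 members had an unadjusted p below 0.05, where 7.61% of genes did. The member log2 fold changes ran from -0.82 for tdrkh to 2.04 for mov10l1, with a median of 1.70, while the median gene was at -0.04. DESeq2 called 1 member, tdrd1 (log2 fold change 2.00, adjusted p = 0.0353), where it called 0.684% of genes. A fit of all 27 libraries in edgeR called 5 (piwil1, piwil2, tdrd1, tdrd9 and mov10l1), each higher in WT_Fe_Ov, where 1.91% of genes were called. Between D10 MT_Fe_Ov and WT_Ma_Te, 0 members were called by edgeR, where 0.11% of genes were, or by DESeq2, where 4.08% were. An unadjusted p below 0.05 was found for 2 members, where 16.3% of genes had one, and the fit of all libraries called tdrd1 and tdrd9 higher and tdrkh lower, where 8.8% of genes were called. Without replicate 1 of WT_Ma_Te, the library of that group with the lowest tdrkh level and the largest total count (11886562), tdrkh was called lower both in WT_Fe_Ov (-1.19, adjusted p = 0.0334) and in MT_Fe_Ov (-1.56, adjusted p = 0.00679). Calls over all genes also rose steeply without that library, as counted in the closing paragraph, so these calls were not particular to tdrkh. Germ cell markers, 8 found of which 3 are members, summed to 7.72 to 10.8 FPKM in MT_Fe_Ov, to 9.74 to 24.7 FPKM in WT_Fe_Ov and to 3.41 to 8.94 FPKM in WT_Ma_Te, with nanos2 at 0 in WT_Fe_Ov. Of these, dnd1 and nanos3 had their highest group means in WT_Ma_Te (1.72 and 0.476 FPKM), and the others apart from nanos2 in WT_Fe_Ov. The part of germ cell markers in these values was not tested.

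At D30, WT_Fe_Ov and WT_Ma_Te were compared to find which pathway genes differed between ovary and testis at that stage. Under TMM, 3 of 8 members rose in WT_Fe_Ov, where 22.2% of 25311 genes did, and 0 fell, where 35.6% did. They were mov10l1 (log2 fold change 1.87, SE 0.09, adjusted p = 1.82e-13), tdrd1 (1.21, SE 0.07, adjusted p = 1.12e-11) and piwil2 (1.15, SE 0.08, adjusted p = 5.02e-11). None of these calls held with library totals as the scaling, under which the 3 genes stood at 0.92, 0.25 and 0.19. With library totals 0 members rose, where 10.3% of genes did, and piwil1 (-1.73), tdrkh (-1.44) and tdrd5 (-1.04) fell, where 50.9% of genes did.

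Relative to the median gene, both scalings gave like values, since a change of scaling shifts all genes by about the same amount. Under TMM mov10l1 stood 2.43 above it, tdrd1 1.76, piwil2 1.70, tdrd9 1.32, tdrd12 0.98, tdrd5 0.47 and tdrkh 0.07, while piwil1 stood at -0.22. The order of the members among themselves ran from mov10l1 down to piwil1, which a change of scaling leaves as it is. The Piwi gene piwil1 was itself at -0.77 under TMM (SE 0.07, adjusted p = 3.64e-09), short of the fold threshold, as was tdrkh at -0.48. For tdrd9 (0.76 under TMM and -0.19 under library totals) and tdrd12 (0.43 and -0.53) the sign depended on the scaling. The germ cell markers, 8 of 8 found and 3 of them members, summed to 699.9 to 728 FPKM in D30 WT_Fe_Ov and to 1324 to 1335 FPKM in D30 WT_Ma_Te. Of these, nanos3 (44.2 against 14.3 FPKM), tdrd1 and piwil2 had higher means in these ovaries. The others had higher means in the testes, the member piwil1 among them (129.9 against 430.5 FPKM). The part of germ cell markers in these differences was not tested. Over all genes the calls were 5615 higher and 9002 lower under TMM, against 2602 and 12873 under library totals.

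Between D30 MT_Fe_Ov and WT_Ma_Te, which uses the same testis libraries, mov10l1 rose (1.18, SE 0.26, adjusted p = 0.00339) and piwil1 fell (-1.52, SE 0.26, adjusted p = 8.01e-04) in MT_Fe_Ov. Of all genes 19.2% rose and 33.5% fell under TMM, with 4840 and 8458 called. The call of mov10l1 was lost without replicate 3 of MT_Fe_Ov (0.88), and piwil2, at 0.88 (SE 0.22, adjusted p = 0.00652), was called without replicate 2 (1.05). With library totals mov10l1 was at 0.30 and not called, where 9.17% of genes rose, and piwil1, tdrd5 and tdrkh fell, where 48% did, with 2317 and 12118 called. Relative to the median gene mov10l1 stood at 1.93, piwil2 at 1.63, tdrd1 at 1.35 and piwil1 at -0.77 under TMM. Member medians were 0.59 for WT_Fe_Ov and 0.05 for MT_Fe_Ov, where the median genes were at -0.56 and -0.75.

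**Figure D2:**
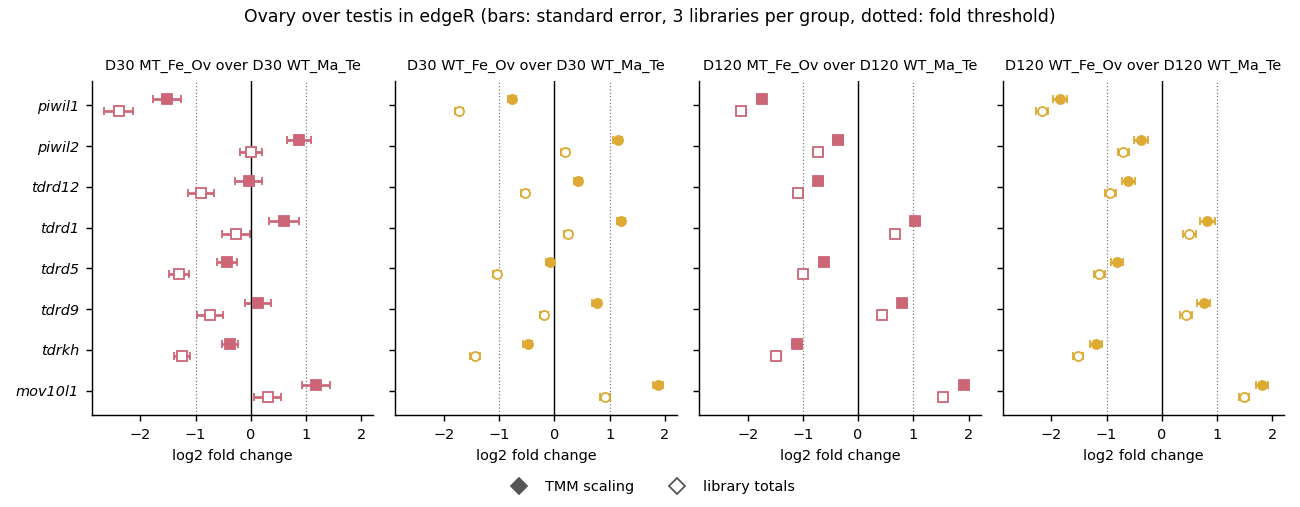
Log2 fold change of the 8 genes in ovary over testis, in 4 panels for MT_Fe_Ov and WT_Fe_Ov at D30 and D120. Filled points are TMM values with bars of 1 SE, open points are library totals, and dotted lines mark the fold threshold of 1. At D30 the scalings lie apart, so that tdrd9 is at 0.76 or -0.19 in WT_Fe_Ov. In each panel mov10l1 is highest and piwil1 lowest, an order that a change of scaling leaves as it is.

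At D120 the same comparison was made for the older gonads. In WT_Fe_Ov mov10l1 rose (1.81, SE 0.10, adjusted p = 5.12e-08) and both piwil1 (-1.84, SE 0.13, adjusted p = 3.05e-07) and tdrkh (-1.19, SE 0.11, adjusted p = 2.39e-06) fell. Of 24997 genes 23.6% rose and 29.6% fell. These 3 calls held under library totals, which added tdrd5 (-1.13 against -0.81 under TMM) to the genes that fell. There 19% of genes rose and 34.5% fell. The call counts over all genes were 5902 and 7410 under TMM, against 4760 and 8635 under library totals.

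In D120 MT_Fe_Ov mov10l1 (1.92, SE 0.07, adjusted p = 2.96e-09) and tdrd1 (1.04, SE 0.08, adjusted p = 1.03e-06) rose, while piwil1 (-1.75, SE 0.08, adjusted p = 1.65e-08) and tdrkh (-1.11, SE 0.09, adjusted p = 9.54e-07) fell. Of all genes 24.1% rose and 30.1% fell, with 6023 and 7529 called. The call of tdrd1 was lost without replicate 3 of WT_Ma_Te (0.97), in a fit of all 27 libraries (0.99) and under library totals (0.67). With library totals tdrd12 (-1.09) was called as well, where 18.9% of genes rose and 35.8% fell, with 4719 and 8957 called.

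The members not called at D120 still had adjusted p-values no higher than 0.05 in the test of edgeR, each with the same sign in both ovaries and under both scalings. Such values were common, as 68.8% of all genes for WT_Fe_Ov and 71.1% for MT_Fe_Ov had an unadjusted p below 0.05 in that test. The members not called are listed next. In WT_Fe_Ov they were tdrd1 (0.82) and tdrd9 (0.76), and on the lower side tdrd5 (-0.81), tdrd12 (-0.61) and piwil2 (-0.38). Member medians were -0.49 in both ovaries, where the median genes were at -0.31 and -0.30 in WT_Fe_Ov and MT_Fe_Ov. Relative to the median gene, mov10l1 stood at 2.12 and piwil1 at -1.54 in WT_Fe_Ov under TMM, and piwil2 at -0.07. Germ cell markers summed to 436.6 to 468 FPKM in MT_Fe_Ov, to 419.5 to 475 FPKM in WT_Fe_Ov and to 697 to 827 FPKM in WT_Ma_Te, with nanos2 at 0 in MT_Fe_Ov. Of these, nanos3 (85.1, 90.1 and 0.66 FPKM in those groups), dnd1 and tdrd1 had higher means in both ovaries, and the others in the testes. Meiotic markers summed to between 64.3 and 81.8 FPKM in the 6 D120 ovaries and to between 708 and 736 FPKM in the 3 testes, and 5 of 10 spermatid markers to between 8.14 and 11.4 FPKM in those ovaries and between 600.4 and 697 FPKM in the testes. Their part in the member values was not tested.

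The mutant and wild-type ovaries were compared to ask whether XY ovaries lacking DMY carried the pathway as XX ovaries do. No member was called at any stage by edgeR's quasi-likelihood test or DESeq2, which called 1.68% of genes at D10, 3.02% at D30 and 0.493% at D120. At D10 all 8 log2 fold changes were below 0, between -1.02 for mov10l1 and -0.40 for tdrkh, with adjusted p-values between 0.131 and 0.582, where 0.374% of genes were called. Of these 4 had an unadjusted p below 0.05, where 18.8% of genes did. At D30 they ran from -0.59 for piwil1 to 0.26 for tdrkh, with adjusted p-values from 0.264 to 0.805, where 1.68% of genes were called. The spread within D30 MT_Fe_Ov was wide, with piwil1 at 81.9 ± 28.6 FPKM there and 129.9 ± 4.67 FPKM in WT_Fe_Ov (SD, n = 3 each). Its libraries also held fewer counted fragments, 6301347 to 10129588 against 14855932 to 15297992 in D30 WT_Fe_Ov. At D120 the 8 values lay between -0.15 for tdrd12 and 0.17 for tdrd1, with adjusted p-values of at least 0.86, where 0.104% of genes were called. At D30 and D120, 0 members had an unadjusted p below 0.05, where 19.7% and 7.02% of genes did. The standard errors of the log2 fold changes ran from 0.12 to 0.60 at D10, from 0.13 to 0.28 at D30 and from 0.08 to 0.11 at D120. At D10 the member median was -0.86, where the median gene was at -0.02.

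Within each group, D30 was then compared with D10. In each kind of gonad 7 of 8 members, all but tdrkh, were called higher at D30, where 23.7% of genes rose in MT_Fe_Ov, 29% in WT_Fe_Ov and 23% in WT_Ma_Te. For piwil2 the log2 fold change of D30 over D10 was 8.11 in MT_Fe_Ov (SE 0.35, adjusted p = 4.00e-07), 7.52 in WT_Fe_Ov (SE 0.24, adjusted p = 4.10e-09) and 8.25 in WT_Ma_Te (SE 0.32, adjusted p = 7.77e-06). For piwil1 it was 5.78 in MT_Fe_Ov, 5.69 in WT_Fe_Ov and 8.14 in WT_Ma_Te. The smallest of these increases was that of tdrd5 in MT_Fe_Ov, at 5.53. For tdrkh the values were 0.65, 0.28 and 0.01 in MT_Fe_Ov, WT_Fe_Ov and WT_Ma_Te, and under library totals the value in WT_Fe_Ov turned to -0.18. Member medians were 6.39, 6.5 and 7.46, where the median genes were at -0.76, -0.45 and 0.12. The D10 libraries also held muscle and other trunk tissue, as their markers show, and the part of tissue makeup in these increases was not tested.

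Between D30 and D120 the gonads were compared again within each group. At D120, in MT_Fe_Ov piwil2 alone fell (-1.48, SE 0.20, adjusted p = 8.75e-04), where 8.75% of genes fell. In WT_Fe_Ov piwil2 (-1.56, SE 0.10, adjusted p = 1.06e-06), piwil1 (-1.32, SE 0.10, adjusted p = 2.46e-06), tdrd5 (-1.07) and tdrd1 (-1.06) fell, where 8.86% of genes fell. The calls of tdrd5 and tdrd1 sat near the fold threshold. That of tdrd1 was lost without replicate 1 (-0.992) or 2 (-0.996) of D120 WT_Fe_Ov, that of tdrd5 without replicate 1, where it came to lie just short of the fold threshold, and both under library totals, which left piwil1 (-1.17) and piwil2 (-1.40) where 6.41% of genes fell. In MT_Fe_Ov the call of piwil2 held under library totals, where 6.04% of genes fell.

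In WT_Ma_Te tdrd12 alone was called higher at D120 than at D30 (1.05, SE 0.08, adjusted p = 1.50e-07), where 17.8% of genes rose, and under library totals it stood at 0.64 and was not called. That scaling called mov10l1 (-1.08), tdrd1 (-1.16) and tdrd9 (-1.11) lower in D120 testes, where 29.9% of genes were. Relative to the median gene tdrd12 stood at 1.16 under both scalings, tdrkh at 0.76, piwil2 at 0.01 and tdrd1 at -0.63. Over all genes, 4504 rose and 5402 fell in the testes under TMM, against 2949 and 7588 under library totals. Among all genes of WT_Fe_Ov the numbers were 2985 and 2151 against 3541 and 1556, and among those of MT_Fe_Ov 2069 and 2090 against 2889 and 1444.

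Whether the difference between ovary and testis itself changed from D30 to D120 was tested in a fit of all 27 libraries. For WT_Fe_Ov the difference moved downward for piwil2 (-1.49, SE 0.30, adjusted p = 2.44e-04) and piwil1 (-1.03, SE 0.40, adjusted p = 0.0385), 2 of 8 members, where 16.9% of genes did. For MT_Fe_Ov it moved downward for piwil2 (-1.40, SE 0.30, adjusted p = 4.71e-04), 1 of 8, where 16.7% of genes did. With library totals these values of piwil2 were -0.89 (adjusted p = 0.00969) and -0.73 (adjusted p = 0.0309), short of the fold threshold. Then 0 members were called for WT_Fe_Ov, where 9.42% of genes moved downward, and mov10l1 (1.24) and tdrd9 (1.17) were called upward for MT_Fe_Ov, where 29.5% of genes moved upward. The call of piwil1 was also lost in DESeq2, where it was just short of the fold threshold, and on leaving out 10 of the 12 libraries compared in turn, all but replicate 3 of D120 WT_Fe_Ov and of D120 WT_Ma_Te, with adjusted p up to 0.0828. Without replicate 2 of D30 MT_Fe_Ov, tdrd12 (-1.12) and tdrkh (-1.01) were called downward for MT_Fe_Ov as well. Relative to the median gene the change of piwil2 was -1.63 for WT_Fe_Ov and -1.61 for MT_Fe_Ov under TMM. Under library totals it was -1.60 and -1.57. It was not alone on that scale under TMM. For WT_Fe_Ov piwil1 stood at -1.17 and tdrd12 at -1.14, and for MT_Fe_Ov tdrkh stood at -1.11 and tdrd12 at -1.06. The other members lay within 1 of the median gene. The upward and downward calls over all genes were 4919 and 4330 for WT_Fe_Ov under TMM against 7392 and 2412 under library totals, and 4868 and 4280 against 7548 and 2290 for MT_Fe_Ov.

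A ratio of the Piwi genes within each library needs no scaling between libraries. At D10 piwil2 over piwil1 was 0.285, 0.276 and 0.293 in MT_Fe_Ov, 0.283, 0.294 and 0.284 in WT_Fe_Ov and 0.456, 0.197 and 0.207 in WT_Ma_Te. At D30 it was 1.32, 1.65 and 1.40 in MT_Fe_Ov, 1.12, 0.926 and 1.02 in WT_Fe_Ov and 0.272, 0.264 and 0.274 in WT_Ma_Te. At D120 it was 0.864, 0.807 and 0.795 in MT_Fe_Ov, 0.884, 0.890 and 0.839 in WT_Fe_Ov and 0.330, 0.307 and 0.305 in WT_Ma_Te. Per length, the transcripts of piwil2 thus stood between 0.795 and 1.65 times those of piwil1 in ovaries from D30 on. In testes they stood between 0.264 and 0.330 times those of piwil1 at these stages. At D10 and at D120 piwil1 was ahead in every library, ovaries included. At D30 it was ahead in the testes and in replicate 2 of WT_Fe_Ov (0.926).

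As log2 values with 0.1 FPKM added to each gene, the ratio averaged 0.28 ± 0.31 in the 6 D30 ovaries and -1.89 ± 0.03 in the 3 D30 testes (SD), a difference of 2.17 (two-sided exact permutation test, p = 0.02381, which is the smallest that 6 against 3 libraries can give, and 0.0357 adjusted over the 3 stages). At D120 it averaged -0.24 ± 0.07 in the ovaries and -1.67 ± 0.06 in the testes (SD, n = 6 and 3), a difference of 1.43 with the same exact permutation p-values. At D10 it averaged -1.65 ± 0.08 in the ovaries and -1.62 ± 0.62 in the testes (SD, n = 6 and 3), and the groups overlapped (difference -0.03, exact permutation p = 0.738). At D30 and D120 all 6 ovary libraries were above all 3 testis libraries. The 6 ovaries join both genotypes, whose ratios at D30 did not overlap.

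**Figure D3:**
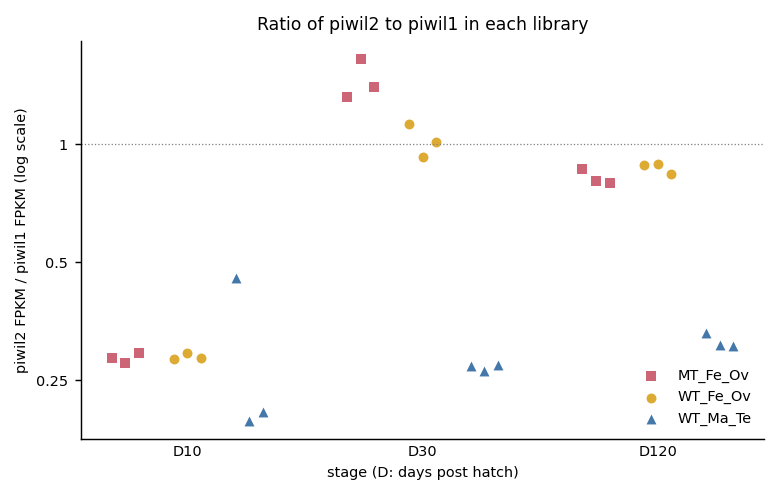
Ratio of piwil2 to piwil1 FPKM in each library on a log axis, by stage and group, with 1 point per library. At D30 and D120 the ovary points lie between 0.795 and 1.65 and the testis points between 0.264 and 0.330, whereas at D10 the groups overlap.

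As a share of the summed FPKM of the 8 genes, the makeup of the set also differed between the sexes. The sum was 503 ± 161 FPKM in D30 MT_Fe_Ov, 682 ± 16.1 FPKM in D30 WT_Fe_Ov and 986 ± 27.6 FPKM in D30 WT_Ma_Te (SD, n = 3 each). At D120 it was 405 ± 11.4 FPKM in MT_Fe_Ov, 391 ± 35.9 FPKM in WT_Fe_Ov and 640.2 ± 25.9 FPKM in WT_Ma_Te (SD, n = 3 each). On this scale the sum was higher in testes than in ovaries at both stages, whereas under TMM the member median at D30 was 0.59 in WT_Fe_Ov and 0.05 in MT_Fe_Ov over testis. Not every member went with the sum. In D30 WT_Fe_Ov tdrd1, piwil2 and mov10l1 had higher mean FPKM than in D30 testes, as had tdrd1, tdrd9 and mov10l1 in both D120 ovaries. Of the summed FPKM, piwil1 made up 16.1%, 19.1% and 43.7% in D30 MT_Fe_Ov, WT_Fe_Ov and WT_Ma_Te, and 14.8%, 14.7% and 40.4% at D120. The share of tdrd1 was 25.6%, 27.4% and 15.9% at D30, and 27.5%, 25.3% and 11.0% at D120, for the groups in that order. For mov10l1 it was 11.6%, 13.2% and 4.82% at D30, and 16.2%, 16.2% and 3.52% at D120. By mean share, ovaries of D30 and D120 thus held a set led by tdrd1 and testes a set led by piwil1, with mov10l1 a small part in testes. In D30 MT_Fe_Ov piwil2, at 23.4%, came close to tdrd1. At D10 tdrkh made up 78.7%, 73.7% and 92.8% of the sum in MT_Fe_Ov, WT_Fe_Ov and WT_Ma_Te. These shares are a description and were not tested.

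**Figure D4:**
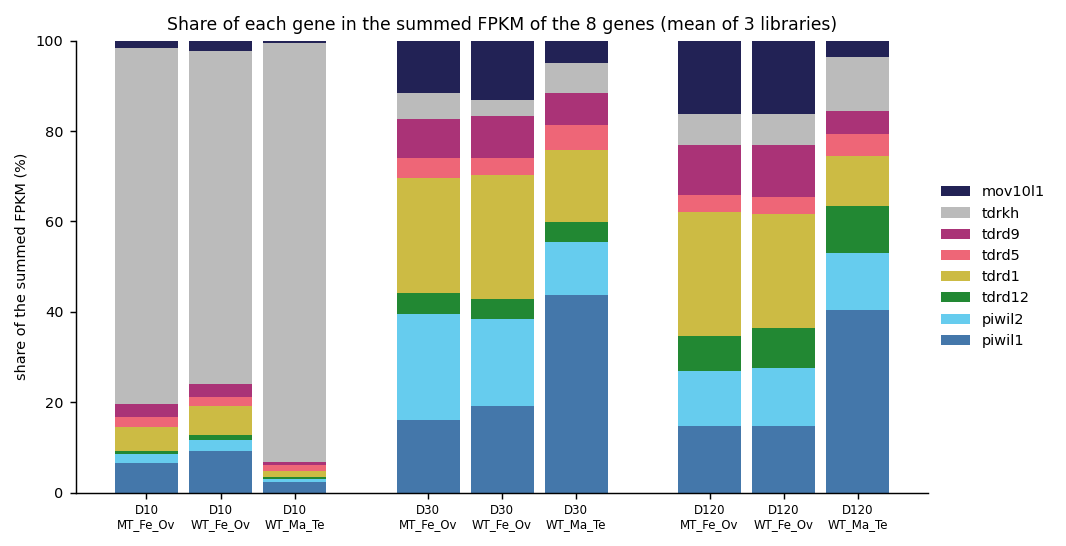
Mean share of each of the 8 genes in their summed FPKM, in percent, as a stacked bar for each of the 9 groups. Bars of D30 and D120 testes are led by piwil1, at 43.7% and 40.4%, and those of D30 and D120 ovaries by tdrd1, at 25.3% to 27.5%, while tdrkh fills most of each D10 bar.

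Of 27 further genes of the pathway, 16 were found under their symbols. Between D30 WT_Fe_Ov and WT_Ma_Te, 4 of the 16 rose and 5 fell under TMM, where 22.2% and 35.6% of all genes did. Between those groups at D120, 3 of the 16 rose and 6 fell, where 23.6% and 29.6% of all genes did. These counts lay near the shares of all genes. The genes that rose at both stages were prmt5 and wdr77, which encode the arginine methyltransferase and its partner that make the marks Tudor domains bind, and snd1, a Tudor nuclease of most tissues. At D30 prmt5 averaged 152 ± 4.10 FPKM in WT_Fe_Ov and 81.3 ± 0.536 FPKM in WT_Ma_Te (SD, n = 3 each), and its log2 fold change under TMM was 1.86 (SE 0.07, adjusted p = 1.29e-14). At D120 it averaged 127 ± 12.2 FPKM in WT_Fe_Ov and 30.4 ± 2.77 FPKM in WT_Ma_Te (SD, n = 3 each), and its log2 fold change under TMM was 2.38 (SE 0.14, adjusted p = 4.94e-08). For wdr77 the log2 fold changes were 1.34 at D30 and 2.00 at D120, and for snd1 they were 1.63 and 2.23. None of these genes was called higher at D30 under library totals.

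The named genes that fell in WT_Fe_Ov at both stages were pld6, whose mouse relative cuts piRNA precursors at mitochondria, tcfl5, a transcription factor of mouse spermatocytes, and kif17, a kinesin motor. The log2 fold changes of pld6 were -3.14 at D30 and -4.19 at D120, with 3.68 ± 0.092 FPKM in D30 WT_Fe_Ov and 62.8 ± 8.85 FPKM in D30 WT_Ma_Te (SD, n = 3 each). Those of tcfl5 were -3.92 and -4.16, with 1.46 ± 0.468 FPKM in D30 WT_Fe_Ov and 43.1 ± 3.36 FPKM in D30 WT_Ma_Te (SD, n = 3 each). For kif17 they were -2.004 and -6.19, with 1.02 ± 0.251 FPKM in D120 WT_Fe_Ov and 93.2 ± 16.6 FPKM in D120 WT_Ma_Te (SD, n = 3 each).

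Against the testes of its stage, MT_Fe_Ov had 3 of the 16 genes higher and 5 lower both at D30, where 19.2% of genes were higher and 33.5% lower, and at D120, where 24.1% were higher and 30.1% lower. Under library totals 0 rose and 7 fell in D30 WT_Fe_Ov, where 10.3% and 50.9% of genes did, and 0 rose and 8 fell in D30 MT_Fe_Ov, where 9.17% and 48% did. The higher calls of D30 thus depended on the scaling, and the lower ones were near the share of all genes. At D120 under library totals 3 rose and 8 fell in either ovary, where 19% and 34.5% of genes did in WT_Fe_Ov and 18.9% and 35.8% in MT_Fe_Ov. At D30 14 were called higher than at D10 in each kind of gonad, where 23.7% of genes were in MT_Fe_Ov, 29% in WT_Fe_Ov and 23% in WT_Ma_Te. Called lower in that step was snd1 in MT_Fe_Ov (-1.10), where 38.4% of genes were, and this call was lost in a fit of all 27 libraries (-0.82). At D120 against D30, ddx4 (-1.52), the Vasa helicase of germ granules, and rnf17 (-1.05), a Tudor protein, fell in MT_Fe_Ov, where 8.75% of genes did, and rnf17 (-1.11) fell in WT_Fe_Ov, where 8.86% did. Under library totals 0 of the 16 fell in WT_Fe_Ov, where 6.41% of genes did, so the call of rnf17 was lost there. In MT_Fe_Ov 1 fell under that scaling, where 6.04% of genes did, and 1 rose. In WT_Ma_Te kif17 (3.66), mybl1 (2.98), which in mouse drives piRNA precursor transcription at meiosis, and tdrd3 (1.56) rose from D30 to D120 under TMM, where 17.8% of genes did, and wdr77 fell (-1.17), where 21.3% did. Between MT_Fe_Ov and WT_Fe_Ov 0 of the 16 were called at any stage by edgeR's quasi-likelihood test in the 6 libraries of each stage. An unadjusted p below 0.05 was found for 4 at D10, 5 at D30 and 0 at D120, where 18.8%, 19.7% and 7.02% of all genes had one. DESeq2 called 1, ddx4, lower at D10 (-1.13) and 0 at D30 and D120, and edgeR in a fit of all 27 libraries called tcfl5 higher in D30 MT_Fe_Ov (1.36, adjusted p = 0.0367), where 2.64% of genes were called in either direction.

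**Figure D5:**
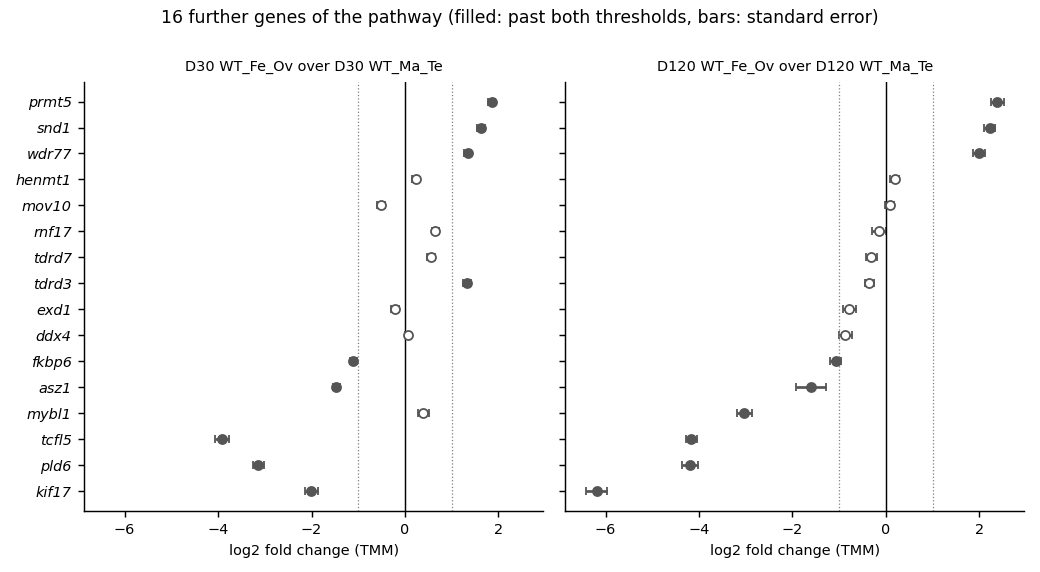
Log2 fold change under TMM of the 16 further pathway genes in WT_Fe_Ov over WT_Ma_Te at D30 and D120, with filled points for called genes. The values run from -6.19 for kif17 at D120 to 2.38 for prmt5 at D120, and under library totals none of the D30 genes on the higher side was called.

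The genes whose pattern was most like that of piwil1, piwil2 and tdrd12 were sought among 9503 genes by Pearson's r of log2(FPKM + 1) over the 27 libraries. The libraries share stages and tissues, and D10 stands far below the rest, so r is near 1 for many genes and is given with no p. For piwil1 the nearest were rad50 (r = 0.991), a gene of DNA break repair, the member tdrd5 (0.990) and the helicase gene ddx43 (0.989). For piwil2 they were rnf17 (0.997), ccdc71 (0.992) and tatdn2 (0.991). For tdrd12 they were gtf2h1 (0.994), mei4 (0.989), a gene of meiotic break formation in mouse, and kcmf1 (0.988). Over the 18 libraries of D30 and D120 alone, a choice made after the values were seen, other genes came nearest to all 3. There r with piwil1 was 0.973 for rad50, now at place 8 in the order of r, and 0.963 for tdrd5, at place 38. For piwil2, r with tatdn2 was 0.785 (place 291), and r of tdrd12 with mei4 was 0.626. All of these were lower without D10, that of mei4 most. The Piwi genes themselves had r = 0.963 over 27 libraries and 0.591 over 18. Between piwil1 and mov10l1 r was 0.892 over 27 libraries and -0.47 over 18.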

How the data were processed

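Poly(A) RNA-seq libraries of gonads, 27 in all, were used, 3 in each of 9 groups set by the labels. The sample titles call the mutant animals DMY-knockout males, whereas the authors describe them as XY females with ovaries, the naming used here. The authors used fastp for trimming, STAR for alignment to ASM223467v1 and featureCounts for counting uniquely aligned pairs on exons, with no strand setting. The deposited counts are raw counts per gene. For the deposited FPKM values the authors used DESeq2. Tested on the files, these values follow the library total and a constant gene length, with no other scaling. Not named are 9 genes whose symbols read as dates.

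Genes with any count in the libraries under comparison (a minimum total of 1) entered edgeR 4.0.16 (limma 3.58.1, R 4.3.3), TMM and the quasi-likelihood test, in the 6 libraries of each pair, with Benjamini-Hochberg adjustment over all genes. Changes of the ovary and testis difference used a fit of all 27 libraries. The ratio used exact permutation tests. A floor of 3 counts is 0.540 CPM in the smallest library, for counting error only. Alternatives were DESeq2 1.42.0, its size factors, library totals, filterByExpr, an adjusted p of 0.01, the replicate number as a block, pooled fits, FPKM pseudocounts of 1 and 0.01 in place of 0.1, and fits without each library. Computations were tested on simulated data. Further tools were scipy 1.17.1, pandas 2.3.3, numpy 2.4.6 and matplotlib 3.10.9 under Python 3.11.15. Positions and gene overlaps come from the RefSeq gene table of ASM223467v1, in which 26090 symbols of the tables were found. The members, the list of 27 further pathway genes, the markers and the tests were chosen with earlier results of these data known. Named are all members, of the pathway list the 3 called genes with the largest change in each direction whose groups do not overlap (WT_Fe_Ov against WT_Ma_Te at D30 and D120), and the 3 nearest patterns of piwil1, piwil2 and tdrd12. Other pathway genes named were chosen after their values were seen. DMY and dmrt1, which would check the genotype labels, were not analysed here.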

Additional observations from a re-analysis of the deposited data

Results flagged for a closer look

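For 2 members a change in the difference between ovary and testis from D30 to D120 was called. The test was edgeR's quasi-likelihood test of that change in a fit of 27 libraries, with p-values adjusted after Benjamini and Hochberg over all genes. For piwil2, WT_Fe_Ov over WT_Ma_Te moved by -1.49 (SE 0.30, adjusted p = 2.44e-04) on the log2 scale. For piwil2 in MT_Fe_Ov over the same testes it moved by -1.40 (SE 0.30, adjusted p = 4.71e-04). For piwil1 in WT_Fe_Ov it moved by -1.03 (SE 0.40, adjusted p = 0.0385), a value close to both thresholds. That call was lost in DESeq2 (-0.998), with filterByExpr (-0.967) and without most single libraries. Over all genes 16.9% moved downward for WT_Fe_Ov and 16.7% for MT_Fe_Ov. With library totals 0 members moved downward past both thresholds for either ovary, and for WT_Fe_Ov piwil2 was at -0.89 and piwil1 at -0.44. Both contrasts share the 6 testis libraries of D30 and D120, of which those of D30 had another read length. The piwil2 fold change over testis was 1.15 at D30 and -0.38 at D120 in WT_Fe_Ov, and 0.88 at D30 and -0.36 at D120 in MT_Fe_Ov, under TMM.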

How the results depend on the processing

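Of the single-gene results, 136 in all, the replicate number as a block changed 0 calls, as it kept 3 members called in D30 WT_Fe_Ov against WT_Ma_Te. Equal replicate numbers are not described as pairs, and 3 libraries per group cannot show whether same-numbered libraries share a batch. Correlations of same-numbered libraries ran from -0.08 to 0.22 over 20560 genes, and in no comparison were all 3 above 0.1. Under this block the calls over all genes were 83 in place of 2 and 103 in place of 27 (D10 WT_Fe_Ov and MT_Fe_Ov against testis), 4 in place of 92 (D10 MT_Fe_Ov against WT_Fe_Ov) and 112 in place of 25 (D120). A single-gene result was taken as reversed where the sign turned and an adjusted p was at most 0.05. Under library totals this held for tdrd9 (-0.19) and tdrd12 (-0.53) in D30 WT_Fe_Ov and tdrd9 (-0.74) in D30 MT_Fe_Ov against testis, and for tdrkh (-0.18) in WT_Fe_Ov at D30 against D10, while 12 single-gene results gained and 11 lost their call. That the number of members called in D30 WT_Fe_Ov was 3 under both scalings hides different genes.

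Members called numbered 1 in DESeq2 and 5 in the fit of 27 libraries for D10 WT_Fe_Ov against testis, and 3 in that fit for D10 MT_Fe_Ov. With library totals they were 2 for WT_Fe_Ov and 3 for WT_Ma_Te at D120 against D30, and 2 for the change of the MT_Fe_Ov difference. For the change of the WT_Fe_Ov difference they were 1 at an adjusted p of 0.01, in DESeq2, with its size factors and with filterByExpr, and 0 with library totals. With 1 library left out, members called ranged from 0 to 1 for both D10 ovaries against testis, 1 to 3 for D30 MT_Fe_Ov and 3 to 4 for D120 MT_Fe_Ov against testis, 2 to 4 for WT_Fe_Ov at D120 against D30, 1 to 2 for the change of the WT_Fe_Ov difference and 1 to 3 for that of the MT_Fe_Ov difference. They stayed at 0 for MT_Fe_Ov against WT_Fe_Ov at each stage, 3 for D30 and for D120 WT_Fe_Ov against testis, 7 in each group at D30 against D10, and 1 for MT_Fe_Ov and for WT_Ma_Te at D120 against D30.

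The log2 Piwi ratio differed by 1.91 in WT_Fe_Ov and 2.42 in MT_Fe_Ov alone at D30, and by 1.47 and 1.39 at D120, each with an exact permutation p of 0.1, the smallest that 3 against 3 can give. With 1 library left out it ranged from -0.24 to 0.32 at D10, 2.08 to 2.25 at D30 and 1.41 to 1.46 at D120. Without a testis library the exact permutation p was 0.07143 at D30 and D120. At D10 the result depended on replicate 1 of WT_Ma_Te. Without it the difference was 0.32, the groups were apart and the exact permutation p was 0.07143, again the smallest possible. Without either of the other D10 testis libraries the groups still overlapped.

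Calls over all genes depended on the tool where few passed. They numbered 2, 27 and 92 for D10 WT_Fe_Ov against testis, MT_Fe_Ov against testis and MT_Fe_Ov against WT_Fe_Ov in edgeR, 168, 1002 and 414 in DESeq2, 488, 2252 and 15 in the fit of 27 libraries, and 0, 1 and 5 at an adjusted p of 0.01. Between MT_Fe_Ov and WT_Fe_Ov they were 401 at D30 and 25 at D120 in edgeR, 719 and 119 in DESeq2, 675 and 49 in the fit of 27 libraries, and 95 and 16 at 0.01. Without replicate 1 of D10 WT_Ma_Te 948 and 3579 genes were called in its comparisons with WT_Fe_Ov and MT_Fe_Ov, and without replicate 2 of D30 MT_Fe_Ov 1078 against D30 WT_Fe_Ov. The causes were not tested. At D10 the 7 members other than tdrkh rested on 4 to 174 counts per library.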
